A study of Mus musculus with 16 samples.

Results

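The Nrf2 antioxidant target genes examined here are 10 genes, taken by name from a list drawn up when earlier results of these data were known: Nfe2l2, Gclc, Gclm, Slc7a11, Gsr, Txnrd1, Srxn1, Prdx1, Hmox1 and Cat. They were found on the array as 14 of 55681 probes whose listed gene is a member, and 9 of the 10 genes were among the 22763 features (1 probe for each gene or transcript name) that could be tested. Heart RNA was measured in 16 C57BL/6 mice of a social defeat model of posttraumatic stress disorder, in which a mouse is caged beside, and at intervals attacked by, an aggressor mouse. Each group had 4 mice with 1 heart and 1 array each: control, kept in mesh boxes without an aggressor, and T1R1, T2R1 and T3R1, with 1, 2 and 3 days of exposure, all sampled after 1 day of rest. The control hearts carry the label of 2 days and 1 day of rest, which matches the T2R1 timing, and a general protocol text names 6 hours a day for 5 or 10 days instead. The group names were followed. Age and sex are not given in the sources used here.

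Nrf2, the protein of Nfe2l2, is a transcription factor that Keap1 and the Cul3 ubiquitin ligase keep scarce in unstressed cells. When oxidants or electrophiles modify Keap1, Nrf2 accumulates, pairs with small Maf proteins and binds antioxidant response elements in the promoters of genes for glutathione synthesis, thioredoxin and peroxiredoxin recycling and heme breakdown. Bach1 occupies the same elements as a repressor, most strongly at Hmox1. The heart depends on these systems because its mitochondria release peroxide continuously.

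The core of the antioxidant response element was written as TGACNNNGC and searched on both strands (GCNNNGTCA on the other) in the RefSeq promoters of build GRCm38.p6, each holding 250 bases before and 50 bases after a start site. Among all 32851 promoters, 12.4% held a match. For 7 of the 10 members, all but Hmox1, Gclc and Gsr, a promoter was at hand, 9 promoters in all because Txnrd1 has 3, and 5 of the 9 held a match, 1 in each of 5 genes. The stretches below show where these letters lie in those 5 members. Each is given in the direction of its gene, with 10 bases on each side and the match in capitals.
Nfe2l2: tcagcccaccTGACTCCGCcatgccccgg
Srxn1: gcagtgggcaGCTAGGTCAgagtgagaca
Gclm: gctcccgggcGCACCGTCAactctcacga
Prdx1: cagggaaagcGCTGAGTCAtcccccgtag
Txnrd1: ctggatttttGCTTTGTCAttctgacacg
The Nfe2l2 stretch is chr2:75704885-75704913 on the minus strand, and the others lie on the plus strand: Srxn1 at chr2:152105542-152105570, Gclm at chr3:122245413-122245441, Prdx1 at chr4:116685456-116685484 and Txnrd1 at chr10:82859104-82859132, ahead of 1 of its 3 start sites. The match begins 134 bases before the start site of Gclm, 133 bases before that of Prdx1, 92 bases before that of Txnrd1 and 240 bases before that of Nfe2l2, while in Srxn1 it begins 28 bases past the start site. The Cat and Slc7a11 promoters held no match in this window. A match is a run of letters and was not tested for binding.

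Gclm had a match and was the member, beside Cat, whose representative probe passed a test between groups with all hearts, so its 250 bases before the start site (chr3:122245307-122245556, plus strand, GRCm38.p6) are shown with the match in capitals.
Gclm promoter: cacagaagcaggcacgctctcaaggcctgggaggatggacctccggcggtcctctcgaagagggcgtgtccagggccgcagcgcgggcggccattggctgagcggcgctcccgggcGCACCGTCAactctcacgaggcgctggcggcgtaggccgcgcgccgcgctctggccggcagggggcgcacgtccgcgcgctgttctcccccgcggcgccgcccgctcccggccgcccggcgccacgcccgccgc

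A further 3 sequences are those of the array probes on which results below turn or differ from a second probe of the gene. Each has 60 bases and a reading frame without a stop codon along its whole length, and positions are those of the array design in build mm9.
Hmox1 probe A_55_P2029687: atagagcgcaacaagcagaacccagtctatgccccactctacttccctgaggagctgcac
Cat probe A_51_P191611: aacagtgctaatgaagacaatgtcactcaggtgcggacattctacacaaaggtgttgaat
Gclm probe A_51_P320089: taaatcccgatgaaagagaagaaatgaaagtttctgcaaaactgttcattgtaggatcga
The Hmox1 probe lies at chr8:77620797-77620856 on the plus strand, 3410 bases upstream of the other Hmox1 probe (A_51_P263965, chr8:77624207-77624266), called the first probe below. The Cat probe spans 3343 bases of the minus strand (chr2:103297086-103300428) and the Gclm probe 2636 bases of the plus strand (chr3:121962174-121964809), so that both cross at least 1 intron and read spliced RNA. The other Cat probe (A_55_P2148873), which represents the gene in the tests below, lies at chr2:103294487-103294546 on the minus strand, nearer the 3′ end of the transcript.

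Levels below are log2 of the background-corrected intensity minus the array's 75th percentile, so a difference of 1 is a doubling between hearts. Levels of different genes or probes cannot be ranked against each other. Arrays had 46.5% to 67.1% of spots well above background, and the 10 cardiomyocyte markers were well above it on all 16 arrays, as the heart label requires. Control and T3R1 hearts shared 1 slide and T1R1 and T2R1 hearts another, so for T1R1 or T2R1 against control, and for T3R1 against either, slide and exposure cannot be told apart. Only the comparisons of T3R1 with control and of T2R1 with T1R1 set arrays of the same slide against each other, each group filling its own side of the slide. The array of control 1 stood apart: its correlation over all features averaged 0.988 with T3R1 arrays, above the 0.97 with controls 2, 3 and 4, and its 75th percentile was 547.5 intensity units against 256.9 to 272.8 in the other controls. Results on control hearts are therefore also given without it, a choice made after seeing the data. Because control 1 resembled the T3R1 arrays, leaving it out tends to widen differences of T3R1 from control. The p-values without it do not allow for that choice. In whole-heart RNA, fewer cells of a type and less RNA per cell cannot be told apart.

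**Figure D1:**
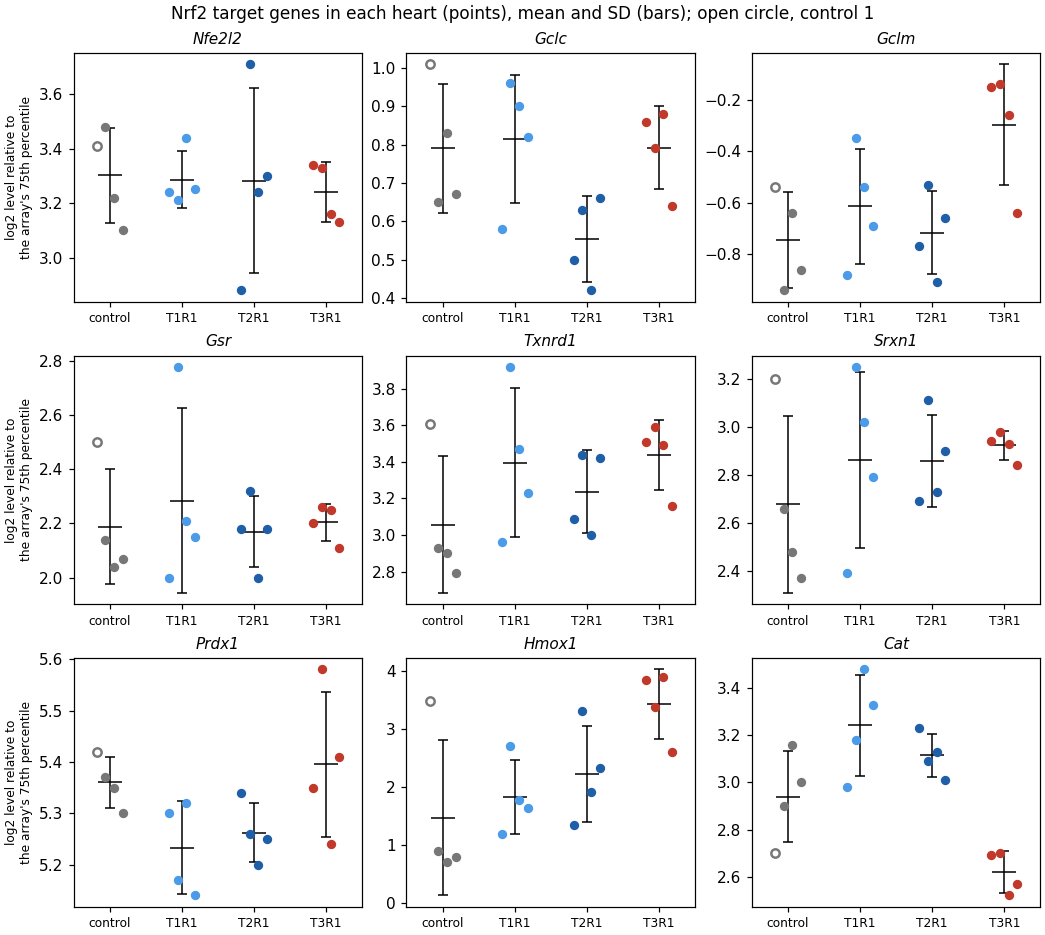
Log2 level relative to the array's 75th percentile (y axes, 1 scale per gene) of the 9 testable members in each heart, by group (x axes); points are hearts, bars the mean and SD, the open circle control 1. Hmox1 spans the widest range, from 0.71 to 3.90, and the 4 T3R1 hearts hold the lowest Cat values but for control 1, which equals the highest of them.

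Across the 16 hearts Hmox1 varied most, with a range of 3.19 on the log2 scale and a pooled SD within groups of 0.90. The range of the other 8 testable members lay between 0.44 for Prdx1 and 1.13 for Txnrd1. Txnrd1 and Srxn1 were the pair of members with the closest pattern over the hearts: their centred log2 values differed by a root mean square of 0.118, the smallest of 36 pairs. Gsr and Srxn1 followed at 0.151, and Cat and Hmox1 were the least alike at 1.254. Control 1 was the highest control for 7 of the 9 members and the lowest for Cat, T1R1 2 was the highest T1R1 heart for 6 members, and T3R1 4 the lowest T3R1 heart for 7.

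With all 16 hearts, none of the 9 testable members differed from control at an adjusted p under 0.05 in T1R1, T2R1 or T3R1 (limma, Benjamini-Hochberg adjustment over all features), where 9.85%, 18.4% and 0.694% of all features did. At an unadjusted p under 0.05, 1 member passed for T1R1 (Cat), 1 for T2R1 (Gclc) and 3 for T3R1 (Gclm, Hmox1 and Cat), beside 25.9%, 30.9% and 22.4% of all features. The median change of the 9 members was 0.13 in T1R1, 0.03 in T2R1 and 0.03 in T3R1, against -0.01, 0.02 and -0.08 over all features. Between exposures, 0 members differed for T2R1 against T1R1, where 0% of all features did, and 1 member (Gclc) passed at an unadjusted p under 0.05, beside 7.83% of all features. Cat was lower in T3R1 than in T1R1, 1 of 9 members called beside 22.9% of all features, of which 15.2% lower. For T3R1 against T2R1 Cat was lower and Gclm higher, 2 of 9 beside 26.9% of all features, of which 20.4% lower and 6.59% higher. Cat was also the 1 member whose hearts did not overlap between T3R1 and T1R1 or between T3R1 and T2R1, beside 26.2% and 38% of all features. The moderated F test over the 4 groups called Cat (adjusted p = 0.00601) and no other member, beside 26.9% of all features.

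Nfe2l2, which encodes Nrf2 itself, had log2 levels of 3.41, 3.48, 3.22 and 3.10 in control hearts, 3.24, 3.21, 3.44 and 3.25 in T1R1, 2.88, 3.71, 3.24 and 3.30 in T2R1 and 3.34, 3.33, 3.16 and 3.13 in T3R1. The groups overlapped fully, and both the lowest and the highest heart were T2R1 hearts. The change against control was -0.01 in T1R1, -0.02 in T2R1 and -0.06 in T3R1, with 95% intervals of -0.32 to 0.29, -0.33 to 0.29 and -0.37 to 0.25 and adjusted p from 0.844 to 0.963. Without control 1 the changes were 0.02, 0.02 and -0.02. Transcript level says nothing of the protein, the step at which Keap1 acts.

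Gclc encodes the catalytic subunit of glutamate-cysteine ligase, the rate-limiting enzyme of glutathione synthesis. Its log2 levels were 1.01, 0.65, 0.83 and 0.67 in control hearts, 0.58, 0.96, 0.90 and 0.82 in T1R1, 0.50, 0.63, 0.42 and 0.66 in T2R1 and 0.86, 0.79, 0.88 and 0.64 in T3R1. T2R1 held the lowest mean, and 3 of its 4 hearts were below every control. The difference of T2R1 from control was -0.24 ± 0.11 (SE, n = 4 each, limma adjusted p = 0.151), and T3R1 differed from control by 0.00 with a 95% interval of -0.23 to 0.23. Without control 1 the T2R1 difference was -0.16 (limma adjusted p = 0.257) and the T3R1 difference 0.08.

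Gclm encodes the modifier subunit, which makes the same enzyme more efficient. Its log2 levels were -0.54, -0.94, -0.64 and -0.86 in control hearts, -0.88, -0.35, -0.54 and -0.69 in T1R1, -0.77, -0.53, -0.91 and -0.66 in T2R1 and -0.15, -0.14, -0.26 and -0.64 in T3R1. The T3R1 hearts 1, 2 and 3 were above every other heart, and T3R1 4 lay among the T2R1 and control hearts. Gclm was 1.34-fold higher in T3R1 than in T2R1 (log2 change 0.42 ± 0.14, SE, limma adjusted p = 0.0424). The adjusted p was above 0.05, at most 0.124, when 1 of 8 hearts was left out: control 3, T1R1 4, T2R1 1, 3 or 4, or T3R1 1, 2 or 3. It was 0.0722 without the filter on dim probes. T3R1 hearts averaged -0.30 ± 0.23 and control hearts -0.74 ± 0.19 (SD, n = 4 each), a change of 0.45 with adjusted p = 0.103. Without control 1 the same difference was 0.52 and passed (adjusted p = 0.0201), with no overlap between the groups, beside 29.4% of all features called.

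Slc7a11, the cystine importer that feeds glutathione synthesis, was not well above background on any of the 16 arrays, with intensities of 2.33 to 9.41 units. It was not tested and no fold is given. Gsr, glutathione reductase, returns oxidised glutathione to its reduced form. Its log2 levels ran from 2.04 to 2.50 in control hearts, 2.00 to 2.78 in T1R1, 2.00 to 2.32 in T2R1 and 2.11 to 2.26 in T3R1. The highest heart, at 2.78, was T1R1 2 and the next, at 2.50, was control 1. The changes against control were 0.10 in T1R1, -0.02 in T2R1 and 0.01 in T3R1, each with SE 0.15, and its second probe gave 0.11, -0.03 and -0.03. Without control 1 the first probe gave 0.20, 0.08 and 0.12, and none passed (limma adjusted p = 0.334, 0.69 and 0.576).

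Txnrd1 encodes the cytosolic selenoenzyme that reduces thioredoxin with NADPH. Its log2 levels were 3.61, 2.93, 2.90 and 2.79 in control hearts, 2.96, 3.92, 3.47 and 3.23 in T1R1, 3.09, 3.44, 3.00 and 3.42 in T2R1 and 3.51, 3.59, 3.49 and 3.16 in T3R1. Every exposed heart was above controls 2, 3 and 4, and control 1 was above all but 1 exposed heart, T1R1 2. T3R1 hearts averaged 3.44 ± 0.19 against 3.06 ± 0.38 in control hearts (SD, n = 4 each), a change of 0.38 ± 0.21 (SE, limma adjusted p = 0.295). Against the other 3 controls, at 2.87 ± 0.08, the change was 0.57 ± 0.19, 1.48-fold (limma adjusted p = 0.0405). In T1R1 and T2R1 it was then 0.52 and 0.36, with adjusted p of 0.0734 and 0.175, again with no overlap.

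Srxn1, sulfiredoxin, repairs overoxidised peroxiredoxins. Its log2 levels were 3.20, 2.66, 2.48 and 2.37 in control hearts, 2.39, 3.25, 3.02 and 2.79 in T1R1, 2.69, 3.11, 2.73 and 2.90 in T2R1 and 2.94, 2.98, 2.93 and 2.84 in T3R1. T3R1 hearts were the most alike, with an SD of 0.06, and all lay above controls 2, 3 and 4, as did all T2R1 hearts. The change in T3R1 against control was 0.24 ± 0.19 (SE, limma adjusted p = 0.454) with all controls and 0.42 ± 0.17 (limma adjusted p = 0.0756) without control 1.

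Prdx1, an abundant cytosolic peroxiredoxin that consumes hydrogen peroxide, had log2 levels of 5.30 to 5.42 in control hearts, 5.14 to 5.32 in T1R1, 5.20 to 5.34 in T2R1 and 5.24 to 5.58 in T3R1. The changes against control were -0.13, -0.10 and 0.03, each with SE 0.08, and none passed. They were -0.11, -0.08 and 0.05 without control 1, where none passed either. A second Prdx1 probe (A_66_P119421, chr4:116372422-116372481, mm9) read 2.05, 2.16, 2.13 and 2.17 in T3R1 against 1.94, 1.95, 1.92 and 1.81 in T2R1 and 2.01, 1.77, 1.92 and 1.80 in T1R1. On this probe T3R1 did not overlap either group, and it was higher than T1R1 by 0.25 ± 0.08 (limma adjusted p = 0.0327) and than T2R1 by 0.22 ± 0.08 (limma adjusted p = 0.0483), in a fit of 31390 single probes that called 22.3% and 26.3% of them. Leaving out 1 heart ended the first call for 6 hearts (T1R1 2, 3 or 4, T3R1 2, 3 or 4; adjusted p up to 0.0871) and the second for 12 (control 3 or 4, T1R1 3 or 4, any T2R1 or any T3R1 heart; up to 0.13). The first probe gave 0.16 and 0.14 for the same comparisons, with adjusted p of 0.171 and 0.236.

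Hmox1 encodes heme oxygenase-1, the inducible enzyme that splits heme into biliverdin, iron and carbon monoxide. Its log2 levels on probe A_51_P263965 were 3.48, 0.89, 0.71 and 0.80 in control hearts, 1.19, 2.71, 1.78 and 1.64 in T1R1, 1.35, 3.32, 1.92 and 2.33 in T2R1 and 3.85, 3.38, 3.90 and 2.61 in T3R1. All 12 exposed hearts were above controls 2, 3 and 4, while control 1 lay within the T3R1 range. T3R1 hearts averaged 3.44 ± 0.60 and control hearts 1.47 ± 1.34 (SD, n = 4 each), a 3.90-fold difference (log2 change 1.96 ± 0.59, SE) that did not pass (limma adjusted p = 0.0910). Against controls 2, 3 and 4, at 0.80 ± 0.09, the difference was 6.20-fold (log2 change 2.63 ± 0.44, limma adjusted p = 0.00117). Against the same 3 controls Hmox1 was 2.69-fold higher in T2R1 (log2 change 1.43, limma adjusted p = 0.0341) and 2.04-fold higher, without passing, in T1R1 (log2 change 1.03, limma adjusted p = 0.117).

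The second Hmox1 probe, A_55_P2029687, whose sequence is given above, ordered the groups otherwise. It read 0.40, -0.16, -0.22 and -0.38 in control hearts, 0.82, 0.37, 0.73 and -0.21 in T1R1, 0.71, 1.29, 1.03 and 0.83 in T2R1 and 0.95, 0.64, 0.66 and 0.19 in T3R1. T2R1 was the highest group on this probe and did not overlap the controls, control 1 included. The difference of T2R1 from control was 2.08-fold (log2 change 1.05 ± 0.23, SE, limma adjusted p = 0.00727, beside 17.7% of single probes called, and at most 0.0249 with any 1 heart left out), and that of T3R1 was 1.62-fold (log2 change 0.70, adjusted p = 0.126). T3R1 minus T2R1 was 1.21 on the first probe and -0.36 on the second, with adjusted p of 0.143 and 0.281. Both probes had control 1 as the highest control heart.

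**Figure D2:**
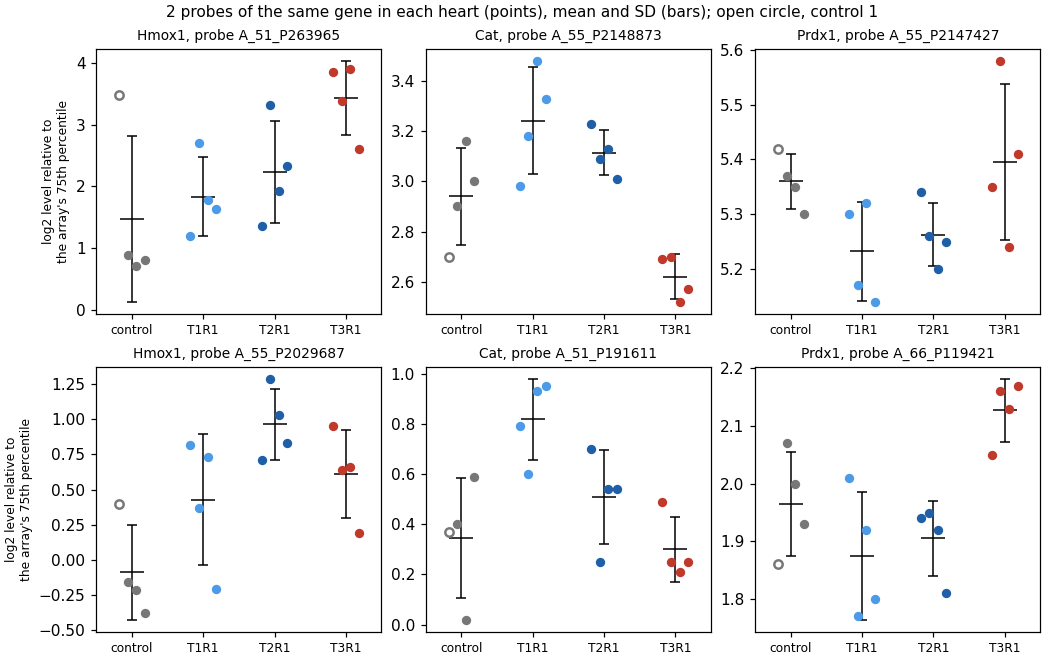
Log2 level relative to the array's 75th percentile (y axes) of both probes of Hmox1, Cat and Prdx1 in each heart, by group (x axes); points are hearts, bars the mean and SD, the open circle control 1. For Hmox1 the T3R1 mean is highest on the first probe (3.44) and the T2R1 mean on the second (0.97), and for Cat the T3R1 mean is lowest on both.

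Cat encodes catalase, the peroxisomal enzyme that breaks hydrogen peroxide down to water and oxygen, and was the member with the firmest difference between groups. Its log2 levels on probe A_55_P2148873 were 2.70, 2.90, 3.16 and 3.00 in control hearts, 2.98, 3.18, 3.48 and 3.33 in T1R1, 3.23, 3.09, 3.13 and 3.01 in T2R1 and 2.69, 2.70, 2.52 and 2.57 in T3R1. No T3R1 heart reached any T1R1 or T2R1 heart, and T3R1 was at or below the lowest control. T3R1 hearts averaged 2.62 ± 0.09 against 3.24 ± 0.21 in T1R1 and 3.11 ± 0.09 in T2R1 (SD, n = 4 each). The log2 change was -0.62 ± 0.12 from T1R1 (limma adjusted p = 0.00209) and -0.49 ± 0.12 from T2R1 (limma adjusted p = 0.00665). Centring arrays on their median in place of the 75th percentile moved the median of all features to 0.33 and 0.26 in these comparisons and gave Cat -0.21 and -0.14, which did not pass (adjusted p = 0.31 and 0.524). Relative to the median of all features the Cat values were -0.55 and -0.40. These are the same under either centring by construction, since each subtracts 1 value per array, and so do not bear on the lost calls.

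Within the slide that control and T3R1 shared, Cat in T3R1 was -0.32 ± 0.12 from control (limma adjusted p = 0.134), and -0.40 (limma adjusted p = 0.0165) without control 1. T1R1 was 0.30 from control, which did not pass (adjusted p = 0.12), and 0.22 without control 1 (adjusted p = 0.178). The Cat probe in the coding sequence, A_51_P191611, put T1R1 at 0.82 ± 0.16 against 0.34 ± 0.24 in control hearts without overlap (log2 change 0.47, limma adjusted p = 0.0364, beside 9.25% of single probes called), a call lost without control 2 or 3 or without T1R1 1, 3 or 4 (adjusted p up to 0.101). On that probe T3R1 was lower than T1R1 (log2 change -0.52, limma adjusted p = 0.0126), while the change from T2R1, -0.21, did not pass (adjusted p = 0.262). The 2 features whose pattern over the 16 hearts was most like that of Cat were Socs7 and Slc41a1, with root mean square differences of 0.113 and 0.116 between centred log2 values.

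**Figure D3:**
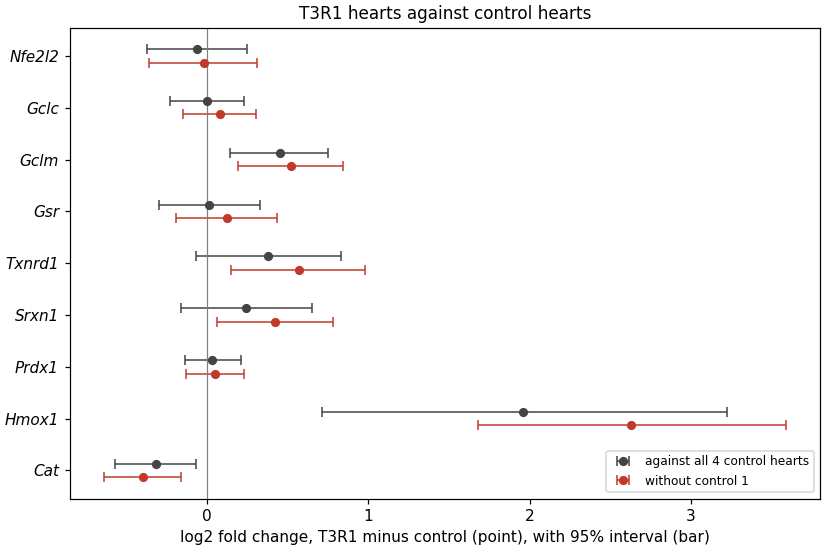
Log2 fold change of T3R1 over control (x axis) of the 9 testable members (y axis), with points for the estimate and bars for the 95% interval, against all 4 control hearts and without control 1. Hmox1 lies at 2.63 without control 1 and at 1.96 with all controls, Txnrd1 at 0.57 and 0.38, while Nfe2l2, Gclc, Gsr and Prdx1 stay within 0.12 of 0.

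Leaving out control 1, chosen after seeing the data, changed what passed among the members in T3R1 against control. Gclm, Hmox1 and Txnrd1 were then higher and Cat lower, 4 of 9 members, beside 29.4% of all features (10.2% higher and 19.2% lower), against 0.694% with all hearts. For T2R1 1 member passed (Hmox1 higher, beside 24.4% of all features and 15% higher) and for T1R1 0 (beside 17.8%). T1R1 1 was the lowest T1R1 heart for 7 of the 9 members. A further fit left out both control 1 and T1R1 1, also chosen after seeing the data. In it T1R1 was higher than control for Txnrd1 (0.67), Srxn1 (0.52) and Cat (0.30), 3 of 9 members beside 22% of all features. T1R1 1 was the lowest T1R1 heart for all 3, so leaving it out raised their changes by construction. Leaving out control 1 also raised Txnrd1 and Srxn1, as their highest control, and lowered Cat, as its lowest. With all hearts the changes were 0.34, 0.18 and 0.30, and none passed. The calls of this fit therefore do not test whether T1R1 differed from control.

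The regulators of the pathway were 13 genes, all tested. Bach1, the repressor at antioxidant response elements, fell in T1R1 and in T2R1, and Keap1, the anchor that marks Nrf2 for degradation, fell in T2R1. This was 1 of 13 and 2 of 13 regulators called, all lower, beside 9.85% and 18.4% of all features, of which 2.11% and 3.58% lower. Bach1 read 1.04, 0.98, 1.28 and 1.12 in T1R1, 1.28, 1.32, 1.16 and 1.17 in T2R1 and 1.20, 1.22, 1.29 and 1.26 in T3R1, against 1.48, 1.61, 1.52 and 1.43 in control hearts. Every exposed heart was below every control heart, control 1 included. Of all features, 13.9%, 24.5% and 7.59% likewise did not overlap control in T1R1, T2R1 and T3R1, in either direction. The log2 change was -0.40 ± 0.08 in T1R1 (limma adjusted p = 0.00618), -0.28 ± 0.08 in T2R1 (limma adjusted p = 0.0240) and -0.27 ± 0.08 in T3R1, which did not pass (adjusted p = 0.0868). Keap1 read 2.54, 2.55, 2.53 and 2.40 in T2R1 against 2.55, 2.94, 2.92 and 2.99 in control hearts, a change of -0.35 ± 0.10 (limma adjusted p = 0.0286), and here control 1 was the low control. Leaving out 1 heart ended the Keap1 call for control 2, 3 or 4 and for T2R1 3 or 4 (adjusted p up to 0.0897), and the Bach1 call in T2R1 for control 2 or 3 and for T2R1 3 or 4 (up to 0.0741), while Bach1 in T1R1 passed in all 16 cases. Without control 1, 3 of the 13 regulators were called in each of T1R1, T2R1 and T3R1 against control, all lower. Of all features 17.8%, 24.4% and 29.4% were called there, of which 9.65%, 9.37% and 19.2% lower. Keap1 (-0.32, -0.45 and -0.27) and Bach1 (-0.42, -0.29 and -0.28) were called in all 3 comparisons. The third was Rbx1 (-0.31), the RING subunit of the Cul3 ligase, in T1R1, Cul3 itself (-0.38) in T2R1 and Btrc (-0.60, limma adjusted p = 0.00318), which recognises Nrf2 for a second ubiquitin ligase, in T3R1. These 3 names were chosen after their values were seen. With quantile normalization the adjusted p of Bach1 in T2R1 was 0.0532, and with the authors' values it was 0.0533.

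Of 25 further Nrf2 targets listed, 24 were tested. Taldo1, an enzyme of the pentose phosphate pathway, fell in T1R1 by 0.34 ± 0.09 on the log2 scale (limma adjusted p = 0.0371), and Cbr3, a carbonyl reductase, fell in T2R1 by 0.43 ± 0.13 (limma adjusted p = 0.0337). Each was the 1 target of 24 called, beside 9.85% and 18.4% of all features called, of which 2.11% and 3.58% lower. None was called in T3R1, beside 0.694% of all features. In T3R1 12 had a positive and 12 a negative change and the median was 0.03. Without control 1 neither call held, with -0.28 for Taldo1 (adjusted p = 0.0501) and -0.31 for Cbr3 (adjusted p = 0.061), and both were also lost with quantile normalization (adjusted p = 0.196 and 0.0665). Taldo1 also missed without control 4, T1R1 3 or T1R1 4 (adjusted p up to 0.111), and Cbr3 without control 2, T2R1 1 or T2R1 2 (up to 0.1). In T3R1 6 of the 24 were then higher and 2 lower, beside 10.2% and 19.2% of all features. The higher were G6pdx (0.71) and Pgd (0.73), which make NADPH, Ugdh (0.87), Akr1b8 (0.84), Txn1 (0.28), the cytosolic thioredoxin, and Ftl1 (0.69), the ferritin light chain that stores the iron heme oxygenase sets free. The lower were Gstm1 (-0.87), a glutathione transferase, and Fth1 (-0.48), the ferritin heavy chain. These names were chosen after their values were seen.

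The 27 other antioxidant genes lie outside the Nrf2 list or belong to other compartments. In T1R1, Prdx4, the peroxiredoxin of the endoplasmic reticulum, fell by 0.40 ± 0.09 on the log2 scale (limma adjusted p = 0.0123) and Blvra, a biliverdin reductase that acts after heme oxygenase, fell by 0.28 ± 0.07 (limma adjusted p = 0.0192), 2 of 27 called beside 9.85% of all features. Both passed without control 1 as well (-0.33 and -0.27), and with quantile normalization Blvra did not (adjusted p = 0.0533), nor did it without T1R1 4 (adjusted p = 0.0529). Prdx4 passed with any 1 heart left out. In T2R1 and T3R1 0 of 27 were called by limma, beside 18.4% and 0.694% of all features. At an unadjusted p under 0.05 they were 4 and 16 of 27, beside 30.9% and 22.4% of all features. Without control 1, T3R1 against control gave 5 of 27 higher and 12 lower, beside 10.2% and 19.2% of all features. The higher were Gpx7 (0.94), Gpx8 (0.51) and Prdx4 (0.42) of the endoplasmic reticulum, the secreted Sod3 (0.35) and Gpx1 (0.67). The lower were Sod2 (-0.53), the superoxide dismutase of mitochondria, Prdx3 (-0.47), Prdx5 (-0.49), Txn2 (-0.46), Txnrd2 (-0.45), Nnt (-0.78), Sod1 (-0.52), Gpx4 (-0.39), Prdx2 (-0.48), Prdx6 (-0.24), Msra (-0.31) and Txnip (-1.23). Txnip is an inhibitor of thioredoxin and not itself an antioxidant enzyme. These names were chosen after their values were seen.

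**Figure D4:**
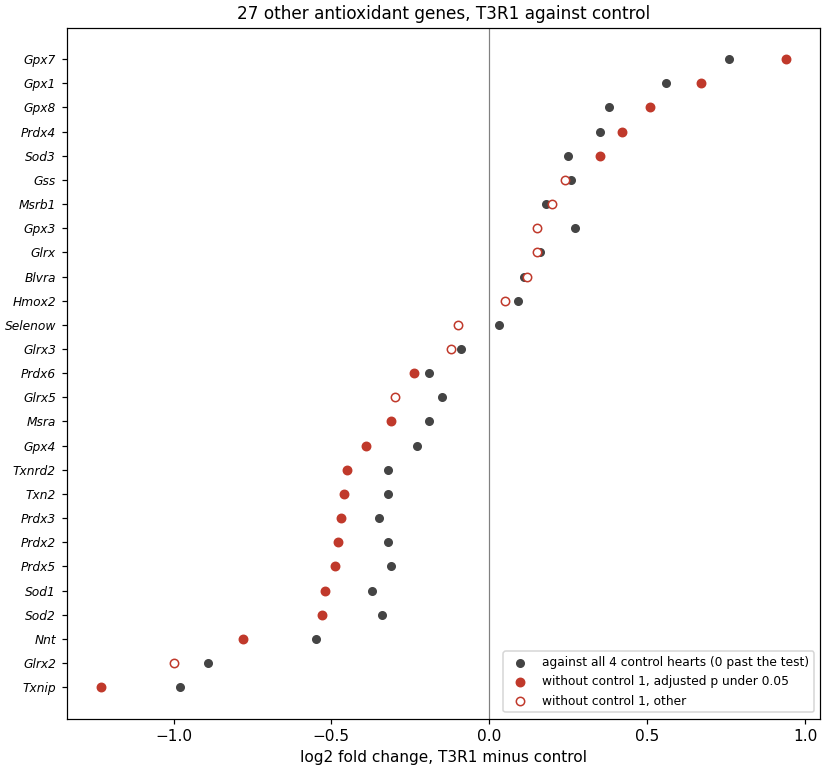
Log2 fold change of T3R1 over control (x axis) of 27 other antioxidant genes (y axis, ordered by the value without control 1), against all 4 control hearts (dark points) and without control 1 (red, filled where the adjusted p was under 0.05). Gpx7 (0.94) lies at the upper end and Txnip, the thioredoxin inhibitor (-1.23), at the lower, and leaving out control 1 moves most points away from 0.

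Among exposures the same lists were compared across slides. In T3R1 against T2R1, 3 further Nrf2 targets were higher (Taldo1 0.44, Ftl1 0.41 and Cbr3 0.50) and 2 lower (Gsta2 -0.63 and Gstm1 -0.63) of 24, and 5 of 27 other antioxidant genes were higher (Gpx7 0.75, Gpx3 0.64, Prdx4 0.50, Gss 0.29 and Blvra 0.29) and 0 lower, beside 6.59% higher and 20.4% lower among all features. These names too were chosen after their values were seen. In T3R1 against T1R1, 4 of the 24 targets were higher and 3 lower, beside 7.65% and 15.2% of all features, and 6 of the 27 antioxidant genes were higher and 1 lower. T2R1 against T1R1 had 0 calls in either list, with 0 and 3 genes at an unadjusted p under 0.05.

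Macrophage marker sums were higher in T3R1 hearts and control 1 than in every other heart. The first Hmox1 probe read 2.61 to 3.90 in T3R1 hearts and 3.48 in control 1. On that probe T2R1 2 (3.32) and T1R1 2 (2.71) also lay above the lowest T3R1 heart. The summed linear level of 10 macrophage markers was 101 to 130 in T3R1 hearts against 61.8 to 126 in control hearts, where control 1 held the 126 and the other 3 lay between 61.8 and 72.7. All 10 were well above background on every array and none was at 0. All 10 had a positive change in T3R1 against control, with a median of 0.63 on the log2 scale and 0 called by limma (7 at an unadjusted p under 0.05). Without control 1, 8 of 10 were called higher, beside 10.2% of all features. The 7 fibroblast markers summed to 571 to 724 in T3R1 and 302 to 524 in control hearts, with control 1 at 524. Of these 4 of 7 were called higher, beside 0.505% of all features, and 5 without control 1, beside 10.2%. The 10 cardiomyocyte markers summed to 5690 to 7930 in T3R1 and 4590 to 10100 in control hearts, with control 1 at 4590, and without control 1 8 of 10 were called lower, beside 19.2% of all features. The part of these cell markers in the values of Hmox1, of Cat or of the other genes named was not tested. In T1R1 and T2R1 the macrophage sums were 67.6 to 78.4 and 69.6 to 84.7, below every T3R1 heart. The median change of the 10 macrophage markers in T2R1 against control was -0.05, and 0.21 without control 1, when 2 of 10 were called higher, beside 15% of all features. Of the 7 fibroblast markers 0 were called by limma in T2R1 with all controls (2 at an unadjusted p under 0.05), beside 18.4% of all features. Without control 1, 4 were called, all higher, beside 15% of all features called higher.

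Cell markers were also called in the comparisons that hold the calls of Cat, Bach1, Taldo1, Prdx4, Blvra and the second Hmox1 probe. Of all features, 2.11% were called lower and 7.74% higher in T1R1 than in control, and 14.8% higher in T2R1 than in control. In T3R1, 7.65% were called higher and 15.2% lower than in T1R1, and 6.59% higher and 20.4% lower than in T2R1. In T3R1 against T1R1, 6 of 7 fibroblast and 7 of 10 macrophage markers were called higher (median log2 changes 2.22 and 0.70). Against T2R1 it was 4 of 7 and 6 of 10 (medians 1.37 and 0.63). Of the 10 cardiomyocyte markers 0 were called in these 2 comparisons, while all 10 changes were negative (medians -0.27 and -0.36). The 9 adipocyte markers summed to 134 to 314 in T1R1 and 210 to 438 in control hearts, and 3 of 9 were called lower (median log2 change -2.51). Without control 1, 0 of 9 were called lower, beside 9.65% of all features. Without both control 1 and T1R1 1 it was 7 of 9, beside 22% of all features called in either direction. In T3R1 the adipocyte markers summed to 177 to 294, and 2 of 9 were called higher than in T1R1 (median 2.07). Neutrophil markers, of which 7 were tested, summed to 44.7 to 79 in T2R1 and 40.5 to 45.2 in control hearts. Of these 4 were called higher in T2R1 than in control, and 3 lower in T3R1 than in T2R1. Also called were 1 neutrophil marker higher in T1R1 than in control and 1 lower in T3R1 than in T1R1. Of 5 thymus markers tested, 1 was called higher in T2R1 than in control and 2 lower in T3R1 than in T1R1 and than in T2R1. Of 5 erythroid markers, 1 was higher in T2R1 than in control and 1 higher in T3R1 than in T1R1, and of 7 endothelial markers 1 was lower in T3R1 than in T1R1. Of 8 liver and 3 lung markers 0 were called by limma in any of these comparisons, with up to 3 and 1 at an unadjusted p under 0.05. Single hearts stood out in 2 of the sums. The 6 lung markers on the array summed to 57.3 in control 1 and 60.4 in T3R1 1, against 9.14 to 12.7 in all other hearts. The thymus sum was 15.1 in T1R1 1, against 5.98 to 7.01 in the other T1R1 hearts. None of the 9 adipocyte, 10 neutrophil, 9 thymus, 7 endothelial, 9 liver and 6 lung markers on the array lacked a signal well above background on all 16 arrays, as 1 of 8 erythroid markers did. Their part in those calls was not tested.

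**Figure D5:**
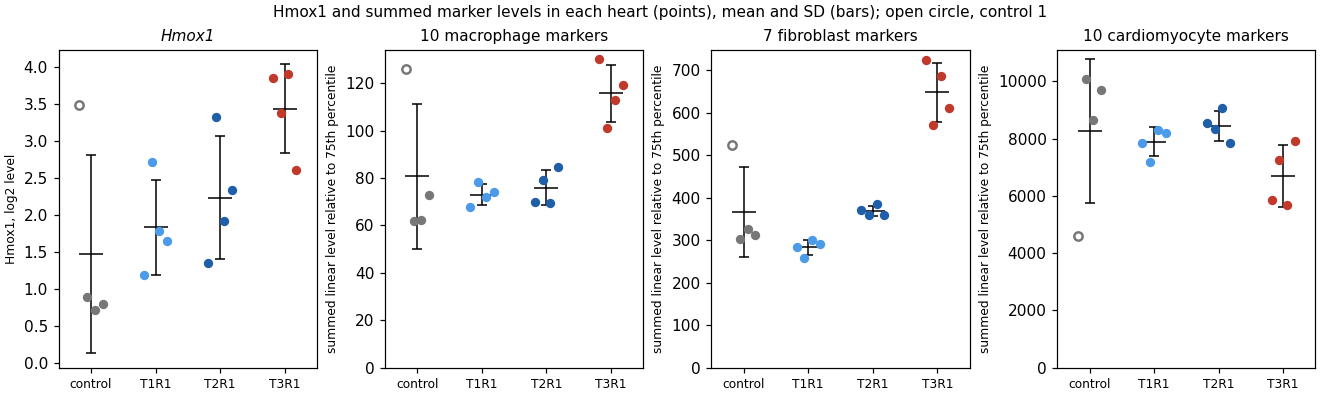
Hmox1 log2 level on probe A_51_P263965 (left) and summed linear level, relative to the array's 75th percentile, of 10 macrophage, 7 fibroblast and 10 cardiomyocyte markers (y axes) in each heart, by group (x axes); points are hearts, bars the mean and SD, the open circle control 1. Control 1 lies near the T3R1 hearts in Hmox1 (3.48) and in the macrophage sum (126), and has the lowest cardiomyocyte sum (4590).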

How the data were processed

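Intensity values were made by Agilent Feature Extraction 10.7.3.1, per the file headers, which subtracted the background and did not normalize between the 16 arrays. The log2 value table that the authors deposited is quantile-normalized and ranks probes as the uncorrected mean intensity does (Spearman 1). The steps that made it are not known here. Flags read from the files are 0 or 1 scores, per the file headers. The log2 processed intensity minus the array's 75th percentile was fitted over the 4 groups with limma 3.58.1 in R 4.3.3. Outlier spots were left out, and a probe was kept where all 4 arrays of some group read it well above background (31390 of 55681), with the probe of highest mean for each name and 102 missing values among the features tested. Tests are two-sided, with adjusted p under 0.05 as the threshold. Replicates are separate mice, and their number limits the precision. The numbers do not pair them: of 24 same-number pairs of arrays, 9 had residuals correlated over 0.1. Members and lists were chosen with earlier results of these data known. The naming rule took genes of 3 pathway lists called against control with all hearts, at most 4 a list and contrast, and the 3 features closest to Cat, of which 1 is not reported here. Further names, marked in the text, were chosen after their values were seen.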

Additional observations from a re-analysis of the deposited data

Results flagged for a closer look

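Hmox1 in control 1, at a log2 level of 3.48, was separated from the other controls, of which the nearest read 0.89. The gap was 0.935 of the range of the 4 controls, above Dixon's 95% critical value for 4 samples. Of the 36 sets of 1 gene in 1 group, chance passes about 1 in 20.

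The response to exposure differed between durations for 2 members, by the limma contrast of the exposed groups. The Cat log2 change was -0.62 for T3R1 against T1R1 and -0.49 for T3R1 against T2R1, and the Gclm log2 change was 0.42 for T3R1 against T2R1. These compare arrays of different slides, so slide and duration cannot be told apart.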

How the results depend on the processing

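Of 720 values of the 9 members under the alternatives that keep every heart, 674 stayed on their side of the threshold, 41 passed it in addition and 5 no longer passed, and no called value changed sign. Where no cause is named below, the cause was not tested.

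With all hearts 0 members were called against control. For T1R1 1 was called with normexp background correction, quantile normalization, the authors' value table, the second probe or an unadjusted p (Cat higher each time), and 1 with median scaling (Prdx1 lower). For T2R1 2 were called with median scaling (Gclc and Prdx1 lower) and 2 with array weights (Hmox1 and Srxn1 higher), and 1 each with the authors' value table (Cat higher), the second probe (Hmox1 higher) or an unadjusted p (Gclc lower). For T3R1 5 were called with array weights (Gclm, Hmox1, Txnrd1 and Srxn1 higher, Cat lower), 1 at an adjusted p under 0.1 (Hmox1) and 3 at an unadjusted p. For T2R1 against T1R1 1 passed at an unadjusted p. For T3R1 against T1R1, 1 in the report, 3 were called with median scaling (Gclm, Hmox1 and Prdx1 higher, Cat lost) or an unadjusted p, and 2 with normexp, the second probe, array weights, an adjusted p under 0.1 or only the 2 groups compared. For T3R1 against T2R1, 2 in the report, 4 were called with array weights and 1 without a filter on dim probes, where Gclm had an adjusted p of 0.0722 among more features. The F test, 1 in the report, called 2 with normexp, the authors' value table or the second probe, 4 with median scaling, 5 with array weights and 3 at either looser threshold. Median scaling moved the median of all features to -0.44 in T1R1 and -0.37 in T2R1 against control, and called 21 and 13 of the 27 other antioxidant genes lower there.

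Leaving out 1 heart gave 0 to 1 members for T1R1 (1 without T1R1 1), 0 to 1 for T2R1 and 0 to 4 for T3R1 against control, 1 to 3 for T3R1 against T1R1 (3 without T3R1 4), 1 to 3 for T3R1 against T2R1 and 1 to 3 for the F test. The highest values for T2R1, T3R1 against control, T3R1 against T2R1 and the F test were those without control 1. Without both control 1 and T1R1 1, added after seeing the data, the counts were 3, 1, 5, 2, 4 and 6 for T1R1, T2R1 and T3R1 against control, T3R1 against T1R1, T3R1 against T2R1 and the F test. The count for T1R1 against control is no test of T1R1, because T1R1 1 was the lowest T1R1 heart for the members called. Hmox1 in T3R1 against control lay between 1.71 and 2.63 with adjusted p of 0.00117 to 0.255. Cat in T3R1 against T2R1 lay between -0.53 and -0.45.

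With the replicate number as a block, the Gclm call in T3R1 against T2R1 was lost (adjusted p = 0.0553, 1 member called), and no other member call changed. The numbers do not pair the hearts. Of 16 arrays, 5 correlated best with one of their own number. The slide as a block gave the same values for T3R1 against control and T2R1 against T1R1 and could not be fitted for the other comparisons.

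Over the whole array, T3R1 against control had 158 features called, against 6695 without control 1, 7857 with array weights, 43 with the replicate block, 24 with median scaling, 16 without a filter, 2 with only those groups and 299 to 540 with normexp, the authors' value table, a trend and robust prior or a filter on all arrays. T1R1 against control had 2242, against 10749 with median scaling, 4350 with array weights, 1441 with quantile normalization, 1104 with normexp and 975 with only those groups. T2R1 against control had 4187, against 9160, 8818 and 2599 with median scaling, array weights and normexp. T3R1 against T1R1 had 5212, against 8797 with median scaling, and T3R1 against T2R1 had 6134, against 9333 with array weights. Signal over background limits Slc7a11, which no array measured well above background.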
